A study of Rattus norvegicus with 8 samples.

Results

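Interferon-stimulated genes are genes whose transcription rises when a cell receives an interferon. A list of 46 such genes was set by gene symbol, with no threshold on the measured values, and 45 of them (all but Gbp1) were found among the 22798 genes with a read in at least 1 library. All 45 also passed the filter on low values used for the tests, a normalized count of 10 or more in 2 or more libraries, which left 16478 genes. The libraries were made from sciatic nerve tissue of outbred female Sprague Dawley rats aged 3 to 6 months. Group PEG was 3 peripheral nerve allografts (PNAs) joined with the polyethylene glycol (PEG) fusion protocol, group NC was 3 negative control PNAs given surgical repair without PEG, and group Unop was 2 unoperated nerves. Both kinds of PNA were excised at 14 days postoperatively (PO), came from unmatched donors, were placed in hosts given no immunosuppression, and hold donor and host cells that the reads do not tell apart. Each library (PEG 1 to 3, NC 1 to 3, Unop 1 and 2) was made from 1 animal, so p-values measure the spread between animals.

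Interferons are secreted proteins of 3 types. Type I interferons (Ifna, Ifnb1 and relatives) are made by cells that sense viral or misplaced nucleic acids, and signal through the receptor of Ifnar1 and Ifnar2 to the factor ISGF3, which holds Stat2 and Irf9 and binds the interferon-stimulated response element (ISRE). Type II interferon, the product of Ifng, is made by T cells and natural killer cells, and signals through Ifngr1 and Ifngr2, and many of its target genes carry the gamma-activated site (GAS). Many genes answer to both types, while others, such as the guanylate-binding proteins (Gbp), the immunity-related GTPases, Ido1 and Socs1, are known for strong answers to Ifng. In transplanted tissue, Ifng is known as a product of the lymphocytes that reject a graft.

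The values are normalized read counts, reads per gene divided by a size factor for each library, and each library held 32472925 to 39959620 reads on genes. Log2 fold changes are from limma on log2(normalized count + 1) in 1 fit of the 8 libraries. A gene was called where its Benjamini-Hochberg adjusted p over the 16478 tested genes was under 0.05. Differences are set out gene by gene, and levels of different genes were not compared, since reads were not divided by transcript length. NC 1 and NC 3 stood apart in muscle reads: the summed normalized count of 3 muscle fibre genes (Acta1, Ckm and Tnnt3) was 345240 in NC 1 and 127770 in NC 3, 6320 in NC 2 and 1984 to 10381 in the PEG-fused PNAs. NC 1 was also the highest NC PNA for 43 of the 45 interferon-stimulated genes, and the part of muscle in their levels was not tested.

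In PEG-fused against NC PNAs, 24 of the 45 were significantly lower, 0 were higher and 21 were not called, beside 13.9% of all tested genes called lower and 15.0% called higher. All 45 log2 fold changes were negative, with a median of -1.37 beside 0.0017 over all tested genes. In NC PNAs against Unop nerves, 43 were significantly higher, 0 were lower, and Mx2 and Ifit2 were not called, with a median log2 fold change of 2.48 and a background of 32.2% called higher and 32.3% lower. In PEG-fused PNAs against Unop nerves, 27 were significantly higher, 0 were lower and 18 were not called, with a median of 1.26 and a background of 29.1% called higher and 28.6% lower. Where a log2 fold change past 1 was also asked, 20 were lower in PEG-fused than in NC PNAs (background 7.14%), 42 higher in NC (19.6%) and 21 higher in PEG-fused PNAs (16.7%) against Unop nerves. These 3 comparisons share their groups and are not independent of each other. Bulk tissue was sequenced, so fewer cells of a type and less RNA per cell cannot be told apart. Without PEG 2, 31 were lower in PEG-fused than in NC PNAs, and without NC 1, 22 were. Without Unop 2, fewer were called higher in each kind of PNA than in Unop nerves. Leaving out a library can change the calls of any gene, and the shares of all tested genes called in these fits are not given here.

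**Figure D1:**
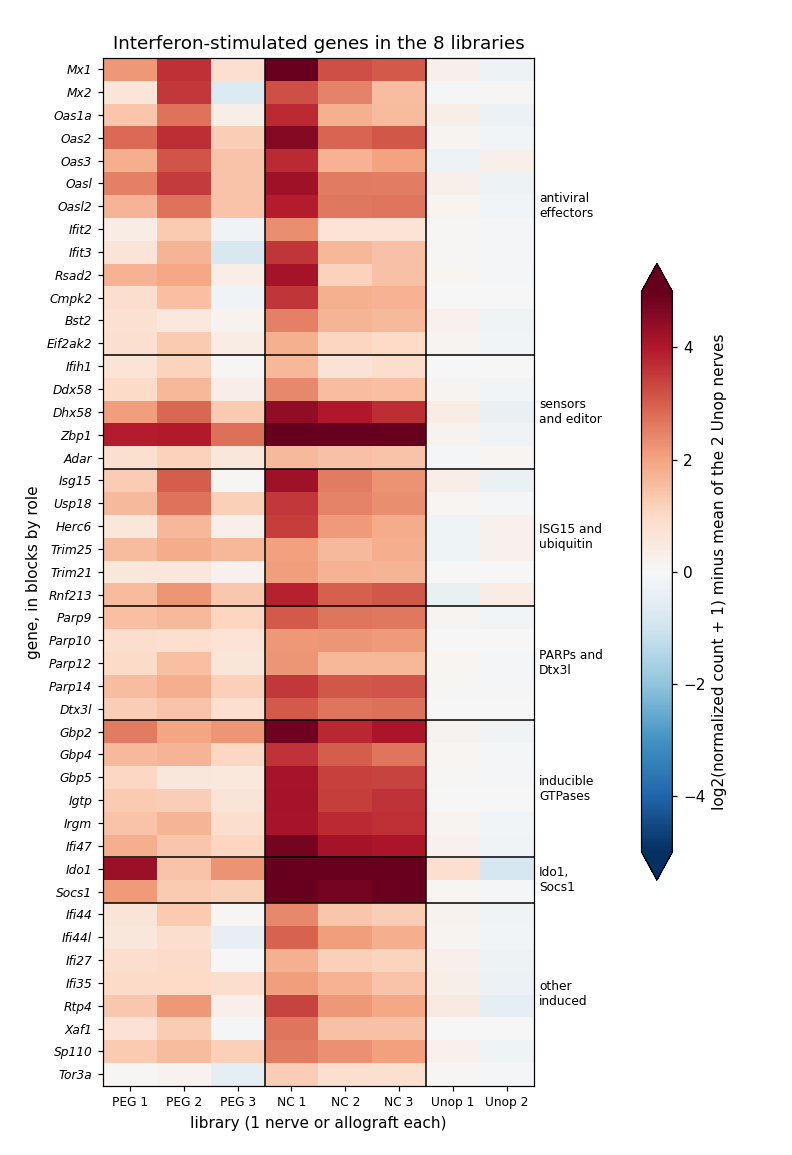
Level of 45 interferon-stimulated genes (rows, in blocks by role) in each of the 8 libraries (columns), as log2(normalized count + 1) minus the mean of the 2 Unop nerves, with red for higher and blue for lower, and colours cut at 5 and -5. By the median of a block, NC 1 is the highest library in all of them, and PEG 2 is redder than NC 2 and NC 3 for 11 of the 13 antiviral effectors but for 0 of the 6 inducible GTPases.

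The groups separated more often than the tests called. For 27 of the 45 genes, every PEG-fused PNA had a lower normalized count than every NC PNA, beside 23.3% of all tested genes. Each NC PNA was above both Unop nerves for all 45 (37.2% of all tested genes), and each PEG-fused PNA was above both Unop nerves for 32 (37.3%). By their calls, 20 genes lay in steps, significantly lower in PEG-fused than in NC PNAs and significantly higher in both than in Unop nerves, beside 6.58% of all tested genes. Bst2, Herc6, Ifi44l and Tor3a were lower in PEG-fused than in NC PNAs and were not called between PEG-fused PNAs and Unop nerves. Oas2, Oas3, Oasl, Oasl2, Eif2ak2, Usp18 and Trim25 were higher in both kinds of PNA than in Unop nerves and were not called between the PNAs.

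**Figure D2:**
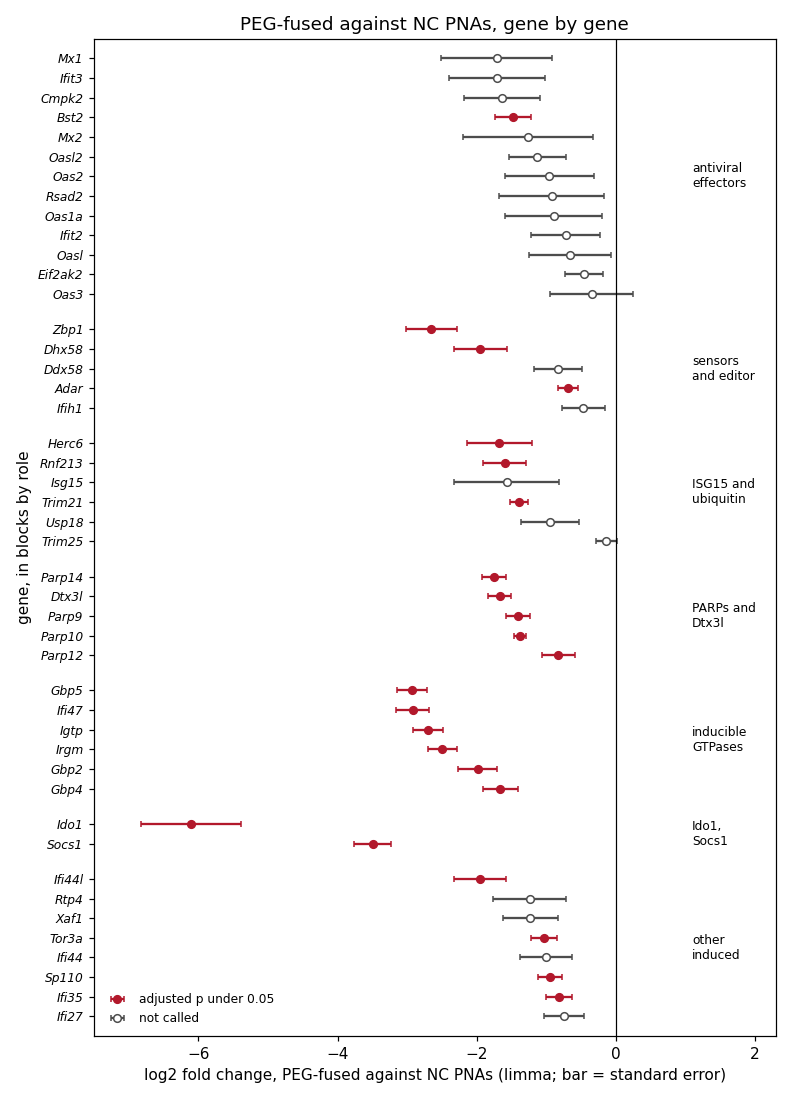
Log2 fold change in PEG-fused against NC PNAs (x axis) for 45 interferon-stimulated genes (y axis, in blocks by role), with bars for the standard error from limma, filled red points for genes called at an adjusted p under 0.05 and open points for the others. All 45 points lie left of 0, and the 6 inducible GTPases and the 5 genes of the PARP block are all filled, against 1 of the 13 antiviral effectors.

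The antiviral effectors act on viral RNA, membranes or replication. Of these 13 genes, 1 (Bst2) was significantly lower in PEG-fused than in NC PNAs, with a median log2 fold change of -0.95, while 11 were higher in NC PNAs and 5 in PEG-fused than in Unop nerves. Mx1 encodes a dynamin-like GTPase that blocks viral ribonucleoproteins. Its normalized counts were 2404, 6731 and 952 in PEG 1 to PEG 3, 24278, 4953 and 4462 in NC 1 to NC 3, and 627 and 452 in Unop 1 and Unop 2. PEG 2 lay above NC 2 and NC 3, and the log2 fold change in PEG-fused against NC PNAs was -1.71 ± 0.80 (SE, adjusted p = 0.144), with a 95% interval of -3.54 to 0.12. In NC PNAs against Unop nerves, the log2 fold change of Mx1 was 3.93 ± 0.89 (SE, adjusted p = 0.00468). Mx2, its relative, was counted at 1692, 12820 and 684 in the PEG-fused PNAs, 10171, 6176 and 3238 in the NC PNAs, and 1052 and 1152 in the Unop nerves. PEG 2 had the highest count of Mx2 of all 8 libraries, PEG 3 lay below both Unop nerves, and no comparison of Mx2 was called (PEG-fused against NC PNAs -1.26 ± 0.93 (SE, adjusted p = 0.343)). Without PEG 2 or PEG 3 in the fit, NC PNAs were called higher than Unop nerves in Mx2 (adjusted p = 0.00482 and 0.0333). Reads of near-identical genes, such as those of the Mx, Oas, Ifit and Gbp families, may be assigned to the wrong copy or dropped when counted. In RefSeq (GRCr8), the annotated spans of 16 of the 45 genes overlap another gene, Parp9 and Dtx3l each other among them and Rsad2 and Cmpk2 not, and since the strand setting of the counting is not given, reads of the overlapping genes may be mixed there.

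The 2′-5′-oligoadenylate synthetases make a small nucleotide signal that switches on RNase L, and the like proteins Oasl and Oasl2 belong to the same family. Oas1a was counted at 556, 1398 and 253 in the PEG-fused PNAs, 2787, 722 and 629 in the NC PNAs, and 258 and 170.1 in the Unop nerves. Oas2 was counted at 374, 689.9 and 122 in the PEG-fused PNAs, 1292, 394 and 452 in the NC PNAs, and 56.9 and 47.5 in the Unop nerves. Oas3 was counted at 108.5, 275 and 82.5 in the PEG-fused PNAs, 405, 101 and 123 in the NC PNAs, and 24.7 and 36.3 in the Unop nerves. In each of the 3 genes NC 1 was the highest library and PEG 2 the next, and the PEG-fused and NC PNAs overlapped. Their log2 fold changes in PEG-fused against NC PNAs were -0.89 ± 0.70 (SE, adjusted p = 0.371) for Oas1a, -0.95 ± 0.64 (SE, adjusted p = 0.298) for Oas2 and -0.34 ± 0.59 (SE, adjusted p = 0.7) for Oas3. Against Unop nerves, Oas2 was higher in both kinds of PNA, at 2.58 ± 0.72 (SE, adjusted p = 0.0143) in PEG-fused PNAs and 3.53 ± 0.72 (SE, adjusted p = 0.00263) in NC PNAs. Oasl was counted at 535, 1070 and 254 in the PEG-fused PNAs, 1799, 571 and 554 in the NC PNAs, and 111 and 78.8 in the Unop nerves. Oasl2 was counted at 1301, 2675 and 1082 in the PEG-fused PNAs, 6068, 2516 and 2585 in the NC PNAs, and 441 and 369 in the Unop nerves. Both repeated the order of NC 1 above PEG 2 above the other PNAs, and their log2 fold changes between the PNAs were -0.65 (adjusted p = 0.435) and -1.13 (adjusted p = 0.0718). DESeq2 called Oasl2 (adjusted p = 0.0144), and so did limma without PEG 2 (0.0319).

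Ifit2 and Ifit3 encode proteins that bind foreign RNA ends. Ifit2 was counted at 1901, 3638 and 1283 in the PEG-fused PNAs, 7304, 2346 and 2317 in the NC PNAs, and 1529 and 1382 in the Unop nerves. It had the smallest increase among the antiviral effectors from Unop nerves to NC PNAs (1.23 ± 0.55 (SE, adjusted p = 0.0805)), and its log2 fold change between the PNAs was -0.72 ± 0.49 (SE, adjusted p = 0.306). Ifit3 was counted at 722, 1487 and 265 in the PEG-fused PNAs, 5388, 1444 and 1272 in the NC PNAs, and 479 and 437 in the Unop nerves. PEG 3 lay below both Unop nerves, and the log2 fold change of Ifit3 between the PNAs was -1.70 ± 0.69 (SE, adjusted p = 0.0976). Rsad2 encodes viperin, which makes a chain-terminating nucleotide, and Cmpk2, its neighbour on chromosome 6, supplies a nucleotide precursor. Rsad2 was counted at 475, 543 and 177 in the PEG-fused PNAs, 2547, 316 and 388 in the NC PNAs, and 151 and 130.1 in the Unop nerves. NC 1 alone was high, both other NC PNAs lay within the range of the PEG-fused PNAs, and the log2 fold change was -0.92 ± 0.76 (SE, adjusted p = 0.395). Cmpk2 was counted at 414, 633 and 197 in the PEG-fused PNAs, 2683, 777 and 744 in the NC PNAs, and 229 and 221 in the Unop nerves. The PEG-fused and NC PNAs did not overlap for Cmpk2, which was not called in limma (-1.63 ± 0.55 (SE, adjusted p = 0.0563)) and was called in DESeq2 (adjusted p = 0.0312).

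Bst2 encodes tetherin, which holds budding virus at the cell surface, and it was the called member of the antiviral effectors. Its counts were 2891, 2429 and 1902 in the PEG-fused PNAs, 9818, 5596 and 5223 in the NC PNAs, and 1998 and 1450 in the Unop nerves. PEG 1 was the highest PEG-fused PNA, which Bst2 shared with no other antiviral effector. The mean was 2407 ± 495 (SD, n = 3) with PEG fusion against 6879 ± 2552 (SD, n = 3) without it, a log2 fold change of -1.47 ± 0.26 (SE, adjusted p = 0.00493), or 2.78-fold lower. Against Unop nerves, Bst2 was at 0.48 ± 0.29 (SE, adjusted p = 0.191) in PEG-fused PNAs. Eif2ak2, the kinase PKR that halts translation on double-stranded RNA, was counted at 3024, 4324 and 2261 in the PEG-fused PNAs, 6021, 3636 and 3478 in the NC PNAs, and 1916 and 1578 in the Unop nerves. Its log2 fold change between the PNAs was -0.45 ± 0.27 (SE, adjusted p = 0.241), while each PNA lay above both Unop nerves. Without PEG 2, 3 antiviral effectors were lower in PEG-fused than in NC PNAs (Bst2, Mx2 with an adjusted p of 0.0201 and Oasl2), and without both PEG 2 and NC 1, 6 were. The second pair of libraries was left out after their values were seen, which narrows the spread by construction. Against Unop nerves, some calls changed when a library was left out, and each such fit also has fewer libraries. Without Unop 2, Oas2, Oas3, Oasl and Eif2ak2 were no longer called higher in PEG-fused PNAs. Their log2 fold changes were then 2.45, 2.41, 2.24 and 0.69, beside 2.58, 2.14, 2.48 and 0.83 with all libraries. Without PEG 3, Mx1 (adjusted p = 0.0219) and Oas1a (0.0494) were called higher in PEG-fused PNAs. Oas3 and Eif2ak2 were not called there without Unop 1 or PEG 2 either (adjusted p from 0.0631 to 0.124), nor Oas2 without Unop 1 (0.0565) or Eif2ak2 without PEG 1 (0.0832). In NC PNAs, Oas1a, Ifit3, Rsad2 and Cmpk2 were not called higher than in Unop nerves without Unop 2 (adjusted p = 0.138, 0.121, 0.156 and 0.0501), and without Unop 1 neither Oas1a, Oas3, Ifit3 nor Rsad2 was (0.069, 0.0705, 0.103 and 0.123). Oas1a (0.0572) and Ifit3 (0.0678) also lost that call without NC 1, and Rsad2 without PEG 1 (0.059) or PEG 2 (0.0549). For Rsad2 the log2 fold change stayed at 2.27 in both of these fits. Without NC 1, Mx1 (0.0232) and Rsad2 (0.0312) were called higher in PEG-fused than in Unop nerves.

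**Figure D3:**
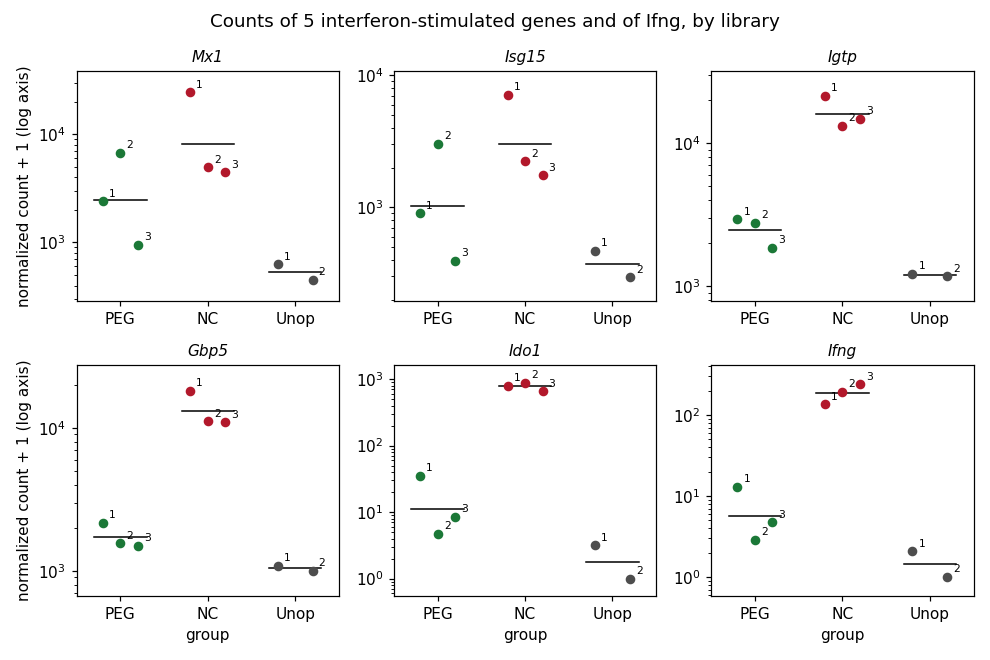
Normalized count + 1 (y axis, log scale) of Mx1, Isg15, Igtp, Gbp5, Ido1 and the ligand gene Ifng in each library (points, numbered by replicate), by group (x axis), with lines at the mean of the log values. For Mx1 and Isg15, PEG 2 lies above NC 2 and NC 3, and for Igtp, Gbp5, Ido1 and Ifng every NC PNA lies above every PEG-fused PNA.

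The nucleic acid sensors start the interferon response or carry it into cell death, and Adar edits double-stranded RNA so that they do not answer to the cell's own. Of these 5 genes, Dhx58, Zbp1 and Adar were significantly lower in PEG-fused than in NC PNAs, all 5 were higher in NC than in Unop nerves, and 3 were higher in PEG-fused than in Unop nerves. Zbp1, a sensor of Z-form nucleic acids that triggers necroptosis, was counted at 418, 438 and 186.7 in PEG 1 to PEG 3, 3056, 1823 and 1534 in NC 1 to NC 3, and 30.1 and 23.8 in Unop 1 and Unop 2. No 2 groups overlapped, and the log2 fold changes were -2.65 ± 0.37 (SE, adjusted p = 0.00191) between the PNAs, 3.55 ± 0.41 (SE, adjusted p = 0.000144) in PEG-fused PNAs against Unop nerves and 6.21 ± 0.41 (SE, adjusted p = 4.91e-06) in NC PNAs against Unop nerves, the last the second largest of the 45 genes after Ido1. Dhx58, which encodes the regulatory sensor LGP2, was counted at 869, 1514 and 508 in the PEG-fused PNAs, 4418, 3270 and 2646 in the NC PNAs, and 266 and 159 in the Unop nerves. It fell by 1.95 on the log2 scale in PEG-fused against NC PNAs (standard error 0.39, adjusted p = 0.00785). Ddx58 (RIG-I) and Ifih1 (MDA5), the sensors that signal through Mavs, were not called between the PNAs. Ddx58 was counted at 485, 797 and 322 in the PEG-fused PNAs, 1320, 727 and 719 in the NC PNAs, and 278 and 229 in the Unop nerves. Ifih1 was counted at 1134, 1563 and 751 in the PEG-fused PNAs, 2286, 1173 and 1300 in the NC PNAs, and 718 and 710.4 in the Unop nerves. In both genes PEG 2 lay above NC 2 and NC 3, and the log2 fold changes were -0.82 ± 0.35 (SE, adjusted p = 0.11) for Ddx58 and -0.46 ± 0.31 (SE, adjusted p = 0.289) for Ifih1. Without PEG 2, Ddx58 was called (adjusted p = 0.0424). In NC PNAs, Ifih1 was not called higher than in Unop nerves without Unop 1 or Unop 2 (0.0846 and 0.0882). Without PEG 3, Ddx58 (0.0179) and Ifih1 (0.0457) were called higher in PEG-fused than in Unop nerves, and so was Ddx58 without NC 1 (0.035).

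Isg15 encodes a ubiquitin-like protein that is joined to other proteins, Herc6 is its ligase, Usp18 removes it and also damps the type I receptor, and Trim25, Trim21 and Rnf213 are ubiquitin ligases. Of these 6 genes, Herc6, Trim21 and Rnf213 were significantly lower in PEG-fused than in NC PNAs, all 6 were higher in NC than in Unop nerves, and 4 were higher in PEG-fused than in Unop nerves. Isg15 was counted at 897, 3015 and 390.2 in PEG 1 to PEG 3, 7101, 2223 and 1742 in NC 1 to NC 3, and 467 and 294 in Unop 1 and Unop 2. PEG 2 lay above NC 2 and NC 3, PEG 3 lay between the Unop nerves, and the log2 fold change between the PNAs was -1.57 ± 0.75 (SE, adjusted p = 0.154). Usp18 was counted at 1111, 2357 and 833 in the PEG-fused PNAs, 4238, 2027 and 1818 in the NC PNAs, and 388 and 335 in the Unop nerves. Its log2 fold change between the PNAs was -0.95 ± 0.42 (SE, adjusted p = 0.125), and without PEG 2 both Isg15 (adjusted p = 0.0424) and Usp18 (0.0371) were called. Trim25, which activates RIG-I, was counted at 889.8, 1098 and 955 in the PEG-fused PNAs, 1258, 924 and 1057 in the NC PNAs, and 261 and 345 in the Unop nerves. It had the smallest difference between the PNAs among the 45 genes, -0.13 ± 0.16 (SE, adjusted p = 0.56) with a 95% interval of -0.49 to 0.23, and rose against Unop nerves by 1.70 ± 0.17 (SE, adjusted p = 7.63e-05) on the log2 scale in PEG-fused and 1.83 ± 0.17 (SE, adjusted p = 3.50e-05) in NC PNAs.

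Trim21, an intracellular antibody receptor, was counted at 1469, 1447 and 1157 in the PEG-fused PNAs, 4162, 3300 and 3228 in the NC PNAs, and 1012 and 967 in the Unop nerves. The PNAs separated by -1.39 ± 0.13 (SE, adjusted p = 0.000595) on the log2 scale, a 2.62-fold difference. Rnf213 was counted at 4110, 6239 and 3451 in the PEG-fused PNAs, 19483, 10717 and 11702 in the NC PNAs, and 1041 and 1772 in the Unop nerves. Its log2 fold changes were -1.60 ± 0.31 (SE, adjusted p = 0.00685) between the PNAs and 1.71 ± 0.34 (SE, adjusted p = 0.00285) in PEG-fused PNAs against Unop nerves. The call for Herc6 (-1.67 ± 0.47 (SE, adjusted p = 0.0302)) was lost without NC 1 (adjusted p = 0.0538), PEG 1 (0.0866) or PEG 3 (0.0987). Against Unop nerves, the increase of Trim21 in PEG-fused PNAs (0.45 ± 0.15 (SE, adjusted p = 0.0283)) was lost without Unop 2 (adjusted p = 0.116) and without PEG 1, PEG 2 or Unop 1 (0.0863, 0.0808 and 0.0783). Without Unop 2, Usp18 was not called higher in PEG-fused PNAs (0.0584) nor Isg15 in NC PNAs (0.0823), and without PEG 3, Isg15 was called higher in PEG-fused PNAs (0.0473).

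Parp9, Parp10, Parp12 and Parp14 attach ADP-ribose to proteins, and Dtx3l is a ubiquitin ligase that works bound to Parp9. All 5 genes were significantly lower in PEG-fused than in NC PNAs, with log2 fold changes from -1.75 (Parp14) to -0.82 (Parp12), and all 5 were significantly higher in both kinds of PNA than in Unop nerves. Parp10 was counted at 858, 844 and 753 in PEG 1 to PEG 3, 2125, 2186 and 2054 in NC 1 to NC 3, and 470.1 and 467 in Unop 1 and Unop 2. It varied least of the 45 genes between libraries of a group, at 819 ± 57.0 (SD, n = 3) in group PEG, 2122 ± 66.2 (SD, n = 3) in group NC and 468 ± 2.50 (SD, n = 2) in group Unop, and its log2 fold change between the PNAs was -1.37 ± 0.08 (SE, adjusted p = 0.000338), or 2.59-fold lower. Dtx3l was counted at 1882, 2163 and 1436 in the PEG-fused PNAs, 6740, 5156 and 5418 in the NC PNAs, and 827 and 790.5 in the Unop nerves. The 3 groups did not overlap, and the log2 fold changes were -1.67 ± 0.16 (SE, adjusted p = 0.000623) between the PNAs, 1.15 ± 0.18 (SE, adjusted p = 0.00075) in PEG-fused PNAs and 2.82 ± 0.18 (SE, adjusted p = 4.06e-06) in NC PNAs against Unop nerves. Parp9 stands next to Dtx3l on chromosome 11 with no coding gene between them, and its fold changes were -1.40 between the PNAs and 1.39 in PEG-fused PNAs against Unop nerves. The call for Parp12 between the PNAs (adjusted p = 0.0354) was lost without NC 1, NC 3, PEG 1 or PEG 3 (adjusted p = 0.0874, 0.0539, 0.0931 and 0.107), and that in PEG-fused PNAs against Unop nerves without Unop 2 (0.068).

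The interferon-inducible GTPases act at membranes in defence against intracellular microbes. They are the guanylate-binding proteins as large GTPases (Gbp2, Gbp4 and Gbp5) and Igtp, Irgm and Ifi47 as small immunity-related ones. All 6 were significantly lower in PEG-fused than in NC PNAs, with a median log2 fold change of -2.60, and all 6 were significantly higher in both kinds of PNA than in Unop nerves. Igtp was counted at 2934, 2775 and 1859 in PEG 1 to PEG 3, 21357, 13207 and 14837 in NC 1 to NC 3, and 1219 and 1176 in Unop 1 and Unop 2. Every NC PNA was at over 4 times every PEG-fused PNA, and the log2 fold change was -2.70 ± 0.21 (SE, adjusted p = 0.000401), or 6.51-fold lower. Gbp5, which also promotes inflammasome assembly, was counted at 2172, 1559 and 1493 in the PEG-fused PNAs, 18232, 11143 and 10936 in the NC PNAs, and 1088 and 1004 in the Unop nerves. It was 7.60-fold lower in PEG-fused than in NC PNAs (-2.93 ± 0.22 (SE, adjusted p = 0.000343)), and stood 0.71 above Unop nerves on the log2 scale in PEG-fused PNAs (standard error 0.24, adjusted p = 0.0326) against 3.64 in NC PNAs. Gbp2 had a smaller difference between the PNAs, -1.98, and stood higher over Unop nerves in PEG-fused PNAs, 2.25. Gbp4 was at -1.66 and 1.44 in the same comparisons, Irgm at -2.49 and 1.34, and Ifi47 at -2.92 and 1.43. In no GTPase did any PEG-fused PNA overlap the NC PNAs, and PEG 1 rather than PEG 2 was the highest PEG-fused PNA in 4 of the 6. Without Unop 2, Gbp5 was not called higher in PEG-fused than in Unop nerves (adjusted p = 0.137), nor without Unop 1 or PEG 1 (0.0909 and 0.0939).

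Ido1 encodes the enzyme that breaks down tryptophan and restrains T cells, and Socs1 encodes the feedback inhibitor of the receptor-bound kinases. These had the largest differences of the 45 genes between PEG-fused and NC PNAs. Ido1 was counted at 34.3, 3.74 and 7.50 in PEG 1 to PEG 3, 799.8, 886 and 657 in NC 1 to NC 3, and 2.15 and 0 in Unop 1 and Unop 2, which for the Unop nerves was 2 reads and 0 reads. The NC PNAs stood together, and PEG 1 lay above PEG 2 and PEG 3. The log2 fold change between the PNAs was -6.11 ± 0.72 (SE, adjusted p = 0.00114), or 69.0-fold lower. Against Unop nerves, where only 2 reads were counted, the ratio of counts was 13.2 (95% counting interval 3.46 to 112) in PEG-fused PNAs and 673 (186.2 to 5564) in NC PNAs, intervals that cover counting error only. The call in PEG-fused PNAs against Unop nerves (adjusted p = 0.0207) was lost with a pseudocount of 8 (0.0754) and without Unop 2 (0.155). Socs1 was counted at 159, 90.7 and 84.4 in the PEG-fused PNAs, 1560, 1025 and 1127 in the NC PNAs, and 38.6 and 33.8 in the Unop nerves. It was 11.3-fold lower in PEG-fused than in NC PNAs (-3.50 ± 0.27 (SE, adjusted p = 0.000387)), and higher than in Unop nerves by 1.54 ± 0.30 (SE, adjusted p = 0.00252) in PEG-fused and 5.04 ± 0.30 (SE, adjusted p = 3.11e-06) in NC PNAs.

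The remaining induced genes are of mixed or unsettled function. Of these 8 genes, Ifi44l, Ifi35, Sp110 and Tor3a were significantly lower in PEG-fused than in NC PNAs, all 8 were higher in NC than in Unop nerves, and Ifi35 and Sp110 were higher in PEG-fused than in Unop nerves. Sp110, a nuclear body protein, was counted at 2703, 3252 and 2457 in the PEG-fused PNAs, 6550, 5319 and 4439 in the NC PNAs, and 1243 and 932 in the Unop nerves. Its log2 fold changes were -0.95 ± 0.17 (SE, adjusted p = 0.00583) between the PNAs and 1.37 ± 0.20 (SE, adjusted p = 0.000472) in PEG-fused PNAs against Unop nerves. Tor3a, an ATPase of the endoplasmic reticulum, was counted at 899, 969 and 614 in the PEG-fused PNAs, 2031, 1518 and 1476 in the NC PNAs, and 889.7 and 827 in the Unop nerves. It fell between the PNAs (-1.03 ± 0.19 (SE, adjusted p = 0.00584)), and in PEG-fused PNAs against Unop nerves it had the lone negative fold change of the 45 genes, -0.08 ± 0.21 (SE, adjusted p = 0.765). Ifi44 was counted at 1901, 2944 and 1243 in the PEG-fused PNAs, 6403, 3126 and 2802 in the NC PNAs, and 1364 and 1058 in the Unop nerves. Xaf1, which promotes apoptosis, was counted at 630.3, 936 and 366 in the PEG-fused PNAs, 2452, 1061 and 1067 in the NC PNAs, and 393 and 380.2 in the Unop nerves. Their log2 fold changes between the PNAs were -1.003 ± 0.37 (SE, adjusted p = 0.0776) and -1.23 ± 0.40 (SE, adjusted p = 0.0501), and both were called in DESeq2 (adjusted p = 0.0171 and 0.00556) and in limma without PEG 2 (0.0486 and 0.038). Ifi27 was counted at 14951, 16113 and 8160 in the PEG-fused PNAs, 28017, 18574 and 17636 in the NC PNAs, and 9717 and 6914 in the Unop nerves. Rtp4, a receptor transporter, was counted at 1114, 2007 and 532 in the PEG-fused PNAs, 4557, 1999 and 1714 in the NC PNAs, and 598 and 328 in the Unop nerves. Neither was called between the PNAs in limma (-0.74 ± 0.29 (SE, adjusted p = 0.0891) and -1.24 ± 0.53 (SE, adjusted p = 0.113)), though the PEG-fused and NC PNAs did not overlap for Ifi27 and it was called in DESeq2 (adjusted p = 0.035). Without PEG 3, Ifi35 was no longer called between the PNAs (adjusted p = 0.0535), and Ifi27 and Rtp4 were called higher in PEG-fused than in Unop nerves (0.0199 and 0.0252). Without Unop 2, Ifi44, Ifi27 and Rtp4 were not called higher in NC PNAs (0.0578, 0.0564 and 0.0539).

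The order of the animals within a group differed between roles. NC 1 was the highest NC PNA for 43 of the 45 genes, beside 34.3% of all tested genes. PEG 2 was the highest PEG-fused PNA for 36 (37.5% of all tested genes) and PEG 3 the lowest for 42 (29.7%). Among the antiviral effectors, PEG 2 was highest in 12 of 13 and PEG 3 lowest in 13 of 13, and the median log2 level over the Unop mean was 1.41, 2.73 and 0.34 in PEG 1 to PEG 3 and 3.71, 1.78 and 1.62 in NC 1 to NC 3. By this median PEG 2 exceeded NC 2 and NC 3. Among the inducible GTPases, the same medians were 1.53, 1.53 and 0.96 in PEG-fused PNAs and 4.14, 3.60 and 3.64 in NC PNAs, and the groups stood apart. PEG 2 lay above both NC 2 and NC 3 for 17 genes, 11 of them antiviral effectors, and for none of the PARP block, the GTPases, Ido1 or Socs1. The share of all tested genes with that order was not computed. The residual SD of the fit on the log2 scale, the spread between animals of a group, had a median of 0.91 for the antiviral effectors, 0.34 for the GTPases, 0.25 for the PARP block and 0.20 over all tested genes. Of the 45 genes, 14 were above the 90th percentile of all tested genes (0.685). Differences between role groups were not tested.

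**Figure D4:**
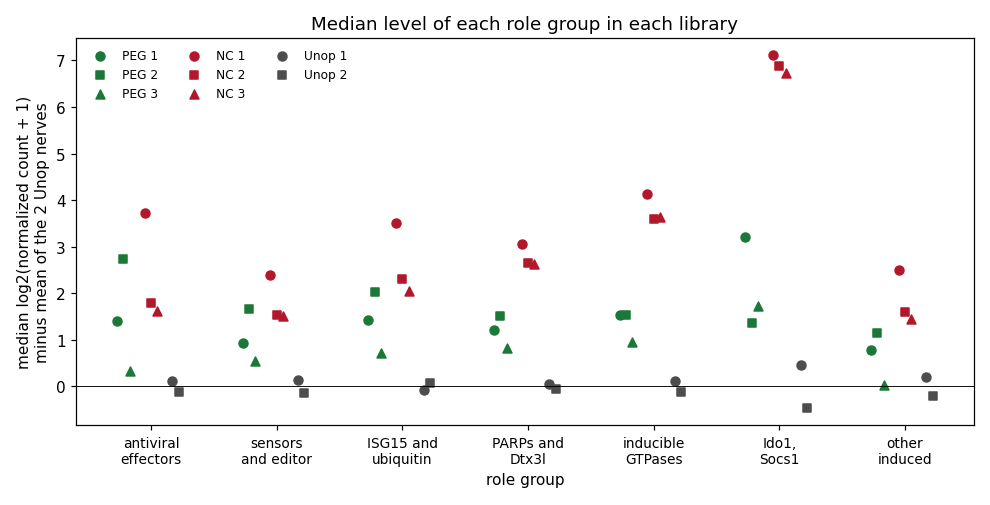
Median over the genes of each role group (x axis) of log2(normalized count + 1) minus the mean of the 2 Unop nerves (y axis), with 1 point per library, coloured by group and shaped by replicate. PEG 2 (green square) lies above NC 2 and NC 3 for the antiviral effectors and the sensors, while the 3 NC PNAs lie above all PEG-fused PNAs for the PARP block, the GTPases, and Ido1 with Socs1.

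Promoters of the genes were searched for the ISRE and the GAS as a description. RefSeq promoters (build GRCr8, 250 bases before to 50 bases after the annotated start) were matched for 33 of the 45 genes. The core of the ISRE was searched as GAAA, any 2 bases and GAAA, and the core of the GAS as TTC, any 3 bases and GAA, on both strands, and the cores may overlap. An ISRE core stood in 23 of the 33 promoters (69.7%), beside 4.12% of all 27457 genes with a promoter in the table. A GAS core stood in 8 (24.2%, beside 9.39%), and both stood in 7 (21.2%, beside 0.645%). Of the 19 promoters whose genes were called lower in PEG-fused than in NC PNAs, 13 held an ISRE core and 7 a GAS core, and of the 14 whose genes were not called, 10 held an ISRE core and 1 (Oas1a) a GAS core. By role, a GAS core stood in 3 of the 6 GTPase promoters (Igtp, Irgm and Ifi47), in that of Socs1, in 1 of 4 of the PARP block (Parp14) and in 2 of 10 of the antiviral effectors (Bst2 and Oas1a), and the last was in Ifi44l. A match describes the letters only, and no factor was measured here.

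The windows below show the cores in 6 promoters, with each core in capitals and the rest in lower case, 5′ to 3′ on the strand of the gene. Igtp, Irgm and Parp14 are shown because a GAS core began 11 bases before an ISRE core in each. That spacing was read from these promoters after they were seen. On the strand of the gene it stood in 4 genes across the whole table, these 3 and Irgm2. The same spacing on the opposite strand was not counted. Bst2, the called antiviral effector, held a GAS core that overlaps the first of 2 overlapping ISRE cores. Trim21, Parp12, Dtx3l, Gbp2, Gbp4, Gbp5 and Sp110, not shown, were also called and held an ISRE core without a GAS core. Oas1a and Ifit3, which were not called between the PNAs, are shown for comparison: Oas1a held 2 overlapping ISRE cores, with its GAS core further upstream outside this window, and Ifit3 held an ISRE core on the opposite strand.
Igtp: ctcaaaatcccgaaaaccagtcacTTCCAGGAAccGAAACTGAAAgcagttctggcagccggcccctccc
Irgm: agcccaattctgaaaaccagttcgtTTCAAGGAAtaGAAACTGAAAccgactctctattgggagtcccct
Parp14: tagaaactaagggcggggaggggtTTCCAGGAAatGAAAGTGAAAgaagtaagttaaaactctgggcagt
Bst2: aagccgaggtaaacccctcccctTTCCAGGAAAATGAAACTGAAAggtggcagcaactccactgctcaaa
Oas1a: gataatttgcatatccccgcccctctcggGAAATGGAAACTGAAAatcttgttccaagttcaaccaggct
Ifit3: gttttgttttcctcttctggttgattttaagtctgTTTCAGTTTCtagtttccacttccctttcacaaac
In GRCr8 these windows are chr10:42874909-42874978 (plus strand, bases -138 to -69 from the start) for Igtp, chr10:33742579-33742648 (minus strand, bases -70 to -1 from the start) for Irgm, chr11:78408023-78408092 (plus strand, bases -111 to -42 from the start) for Parp14, chr16:18255058-18255127 (minus strand, bases -160 to -91 from the start) for Bst2, chr12:41330396-41330465 (plus strand, bases -70 to -1 from the start) for Oas1a and chr1:241527247-241527316 (plus strand, bases -79 to -10 from the start) for Ifit3. All lie upstream of the annotated start. Between PEG-fused and NC PNAs, the log2 fold changes of these genes were -2.70 for Igtp, -2.49 for Irgm, -1.75 for Parp14, -1.47 for Bst2, -0.89 for Oas1a and -1.70 for Ifit3, the first 4 of which were called.

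**Figure D5:**
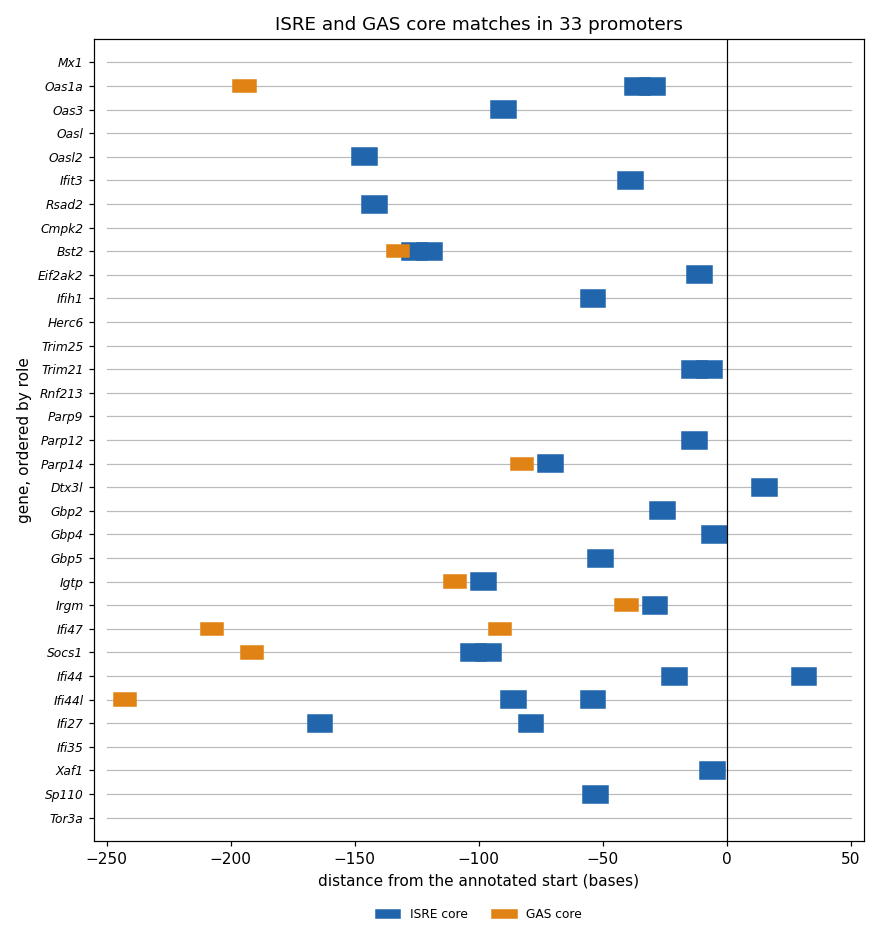
Position of ISRE cores (blue) and GAS cores (orange) relative to the annotated start (x axis, bases) in the promoters of 33 interferon-stimulated genes (y axis, ordered by role). Blue marks stand in 23 promoters and orange marks in 8, and in Igtp, Irgm and Parp14 an orange mark stands directly before a blue one.

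Of a list of 39 genes that make, receive or pass on the interferon signal, 35 were in the table and 28 were tested. In PEG-fused against NC PNAs, 20 of the 28 were significantly lower and 0 were higher, beside 13.9% and 15.0% of all tested genes. Against Unop nerves, 25 were higher in PEG-fused PNAs (29.1% of all tested genes) and 27 in NC PNAs (32.2%). Ifng, the type II ligand, had normalized counts of 12.05, 1.87 and 3.75 in PEG 1 to PEG 3, 135, 192.6 and 240.2 in NC 1 to NC 3, and 1.07 and 0 in Unop 1 and Unop 2. Its log2 fold change was -5.04 ± 0.59 (SE, adjusted p = 0.00107) between the PNAs, and against the 1 read in Unop nerves the ratio of counts was 10.2 (95% counting interval 1.63 to 425) in PEG-fused PNAs. Among NC PNAs, NC 1 was the lowest in Ifng and the highest in 43 of the interferon-stimulated genes. Among PEG-fused PNAs, PEG 2 was the lowest in Ifng and the highest in 36. PEG 1 was the highest of them in Ifng and in 9 of the 45 genes: Ido1, Socs1, 4 of the 6 GTPases, Bst2, Trim21 and Parp10. NC 1, the lowest NC PNA in Ifng, was the highest NC PNA in Socs1 and in all 6 GTPases. Ifng had 13, 2 and 4 reads in PEG 1 to PEG 3, too few to rank PEG 2 below PEG 3. Type I ligands were near absent, with 0 to 3 reads per library for each of Ifnb1, Ifna2, Ifna4, Ifnk and Ifne, and the type III ligands Ifnl1 and Ifnl3 had 0 reads in all 8 libraries, where a count of 0 allows up to 3 reads per library. Differences in these ligands were not detectable at this depth, and other interferon genes were not analysed here.

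The receptor genes differed little between the PNAs. The type I receptor genes Ifnar1 and Ifnar2 had log2 fold changes of -0.19 ± 0.10 (SE, adjusted p = 0.165) and -0.42 ± 0.12 (SE, adjusted p = 0.0312), and the type II receptor genes Ifngr1 and Ifngr2 had -0.18 ± 0.19 (SE, adjusted p = 0.508) and -0.56 ± 0.11 (SE, adjusted p = 0.00808). Ifnlr1 and Il10rb, which form the type III receptor, were at 0.27 ± 0.11 (SE, adjusted p = 0.0995) and 0.07 ± 0.12 (SE, adjusted p = 0.703). The call for Ifnar2 was lost without any 1 PEG-fused PNA and without NC 2 or NC 3 (adjusted p up to 0.0977). All 6 receptor genes were significantly higher in both kinds of PNA than in Unop nerves. Downstream, the kinase genes Jak1, Jak2 and Tyk2 were all lower in PEG-fused than in NC PNAs, at -0.49, -0.78 and -0.64. Stat2, a part of ISGF3, was counted at 3443, 4658 and 2978 in the PEG-fused PNAs, 11889, 8505 and 7881 in the NC PNAs, and 2159 and 2373 in the Unop nerves. It was lower in PEG-fused than in NC PNAs (-1.35 ± 0.20 (SE, adjusted p = 0.00222)), and Irf9, its partner, differed less (-0.47 ± 0.15 (SE, adjusted p = 0.0461)) and its call was lost with each of several libraries left out and with edgeR (adjusted p up to 0.135).

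The interferon regulatory factors Irf1 and Irf7 differed in their spread between animals. Irf1, a factor known for strong induction by Ifng, was counted at 2941, 2015 and 2188 in PEG 1 to PEG 3, 20631, 18723 and 16665 in NC 1 to NC 3, and 1378 and 1099 in Unop 1 and Unop 2. The groups stood far apart, and Irf1 was 7.92-fold lower in PEG-fused than in NC PNAs (-2.98 ± 0.16 (SE, adjusted p = 0.00019)). Irf7, the factor that amplifies type I interferon, was counted at 2601, 5272 and 1068 in the PEG-fused PNAs, 13173, 4301 and 3902 in the NC PNAs, and 829 and 683 in the Unop nerves. PEG 2 lay above NC 2 and NC 3, as it did for 11 of the antiviral effectors, and the log2 fold change of Irf7 was -1.31 ± 0.61 (SE, adjusted p = 0.146). Irf5 (-0.81) and Irf8 (-1.75), which macrophages and dendritic cells use, were also lower in PEG-fused PNAs, and Irf3 (-0.29) was not called. Of 8 sensing genes upstream of interferon, 6 were lower, at between -1.40 (Tmem173, STING) and -0.55 (Myd88), and Mavs (0.03) and Tlr3 (-0.19) were not called. The chemokine genes Cxcl9, Cxcl10 and Cxcl11, which draw activated T cells, were lower in PEG-fused PNAs, with log2 fold changes of -4.06, -3.01 and -4.79. This list was chosen with earlier results on these samples known, so its counts are not independent evidence of a direction.

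Markers of cell types, among them cells that make or answer to interferon, were set beside these results. Of all tested genes, 13.9% were called lower and 15.0% higher in PEG-fused than in NC PNAs. All 7 T cell genes (Cd3d, Cd3e, Cd3g, Cd2, Cd5, Lck and Cd8a) were significantly lower in PEG-fused than in NC PNAs, with summed normalized counts of 1751 to 4961 in PEG-fused PNAs, 20210 to 37933 in NC PNAs and 206 to 394 in Unop nerves. All 3 natural killer cell genes were lower, with sums of 411 to 1072 in PEG-fused PNAs, 2234 to 4836 in NC PNAs and 114 to 119 in Unop nerves. Within groups, NC 1, the highest NC PNA for 43 of the interferon-stimulated genes, had the lowest T cell sum of the NC PNAs (20210), and PEG 2, the highest PEG-fused PNA for 36, had the lowest of the PEG-fused PNAs (1751). PEG 1 had the highest T cell sum (4961) and natural killer cell sum (1072) of the PEG-fused PNAs. It was the highest of them for 9 of the 45 genes: Ido1, Socs1, 4 of the 6 GTPases, Bst2, Trim21 and Parp10. NC 1 also had the lowest natural killer cell sum of the NC PNAs (2234), and was the highest of them for all 6 GTPases. Of 6 macrophage genes, 4 (Aif1, Csf1r, Cd14 and Adgre1) were called lower and 0 higher. Cd68 was not called in limma (log2 fold change 0.36, adjusted p = 0.264), though each PEG-fused PNA lay above every NC PNA. Mrc1 was not called either (-0.09, adjusted p = 0.766). The macrophage sums were 54353 to 61328 in PEG-fused PNAs, 69264 to 80423 in NC PNAs and 11394 to 15769 in Unop nerves. Of 3 plasmacytoid dendritic cell genes, 1 was lower, with sums of 148 to 421 in PEG-fused PNAs, 389 to 813 in NC PNAs and 2.50 to 11.8 in Unop nerves, and all 3 B cell genes were lower. All 3 Schwann cell genes (S100b, Sox10 and Erbb3) were higher in PEG-fused than in NC PNAs, of 4 fibroblast genes 2 were higher, and of 3 endothelial genes 1 was lower. The 6 genes of myelinating Schwann cells summed to 47144 to 56116 in PEG-fused PNAs, 17282 to 73811 in NC PNAs and 2717800 to 3257100 in Unop nerves, so the defining markers of nerve were present in every library and far lower in PNAs. The part of these cells in the differences of the interferon-stimulated genes was not tested.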

How the data were processed

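Sciatic nerve RNA was sequenced as 8 stranded libraries, 3 of group PEG, 3 of group NC and 2 of group Unop. Per the submitters' processing notes and the study's methods, the authors aligned reads to Rnor_6.0 with TopHat2, used HTSeq to count reads per gene and divided these by DESeq2 size factors. The strand setting and tool versions are not given in the sources used here. The deposited signal values are these normalized read counts. All were whole multiples of 1 read within 0.001, with size factors from 0.800 to 1.12, so the reads of each library were recovered. Fold changes and p-values that the authors also deposited were not used.

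Genes with a normalized count of 10 or more in 2 or more libraries were tested with limma 3.58.1 (trend) on log2(normalized count + 1), a scale that understates changes of low genes, with group means over all 8 libraries and Benjamini-Hochberg adjustment (R 4.3.3). Each gene has 1 residual variance over the groups. Alternatives were edgeR 4.0.16 (TMM) and DESeq2 1.42.0 on whole reads, TMM scaling, no filter, a filter of 50 counts, a pseudocount of 8, a robust fit, a fit of only the 2 groups compared, a replicate block, a fold threshold, and each library left out. In simulated PEG-fused against NC PNAs over 16478 genes, limma recovered 63 of 100 genes changed 2-fold and 94 of 100 changed 4-fold, with 15 false calls. The changed genes were drawn at random from tested genes above a count floor, not from the interferon-stimulated genes. The median residual SD was 0.47 for the 45 genes and 0.20 over all tested genes, so this recovery need not hold for them. At this number of animals a gene that is not called may still differ.

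The genes, their roles, the pathway list and the marker lists were chosen with earlier results of these data known. Values in every library are given for the 2 genes of each role with the smallest adjusted p in PEG-fused against NC PNAs, for every gene not called there and for Ifng, Stat2, Irf1 and Irf7, and other members of a family by fold changes. Herc6, Parp12 and Ifi35 were named after their values were seen, for calls that were lost when a library was left out. The kinases, Irf3, Irf5, Irf8, the sensing genes and the chemokines were also named after their values were seen. Symbols are those of the deposited values. Promoters of 12 of the 45 genes were not used here.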

Additional observations from a re-analysis of the deposited data

How the results depend on the processing

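Of the counts of calls and medians, none changed direction under the alternatives run. The number of interferon-stimulated genes lower in PEG-fused than in NC PNAs was 24, between 23 and 29 with another scaling, filter, pseudocount, tool or fit, between 21 and 31 with each library left out and 33 without both PEG 2 and NC 1. With each library left out, their median log2 fold change ranged from -1.52 (without PEG 2) to -0.88 (without PEG 3). Higher than in Unop nerves were 18 to 34 in PEG-fused and 34 to 44 in NC PNAs with each library left out. With a log2 fold change past 1, the pathway list had 10 genes lower in PEG-fused than in NC PNAs (7.14% of all tested genes). It had 16 higher in PEG-fused than in Unop nerves (16.7%). That list under the alternatives, and leaving out PEG 2 and NC 1 together, were added after the data were seen. For the alternative fits, the shares of all tested genes called are not given here, so their counts have no background beside them.

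Few log2 fold changes changed sign, and none of the changed values was called. Between the PNAs, with each library left out, Oas3 ranged from -0.85 to 0.27 (without NC 1) and was at 0.0081 without PEG 3, and Rsad2 ranged from -1.47 to 0.031 (without NC 1). In PEG-fused PNAs against Unop nerves, Mx2 ranged from -0.033 to 2.08, Ifit3 from -0.062 to 1.18 (both lowest without PEG 2, with NC 1 kept or left out) and Tor3a from -0.21 to 0.12 (without PEG 3), with 0.063 for Tor3a under the replicate block. Calls and signs stayed the same under every alternative for 29 of the 45 genes between the PNAs, 24 in PEG-fused PNAs and 33 in NC PNAs against Unop nerves. The cause of these changes was not tested.

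The sample labels do not say whether equal replicate numbers pair the samples, and small correlations cannot settle it. Deviations from the group means correlated at 0.108 for PEG 1 with NC 1, 0.109 for PEG 2 with NC 2 and -0.050 for PEG 3 with NC 3. Each of PEG 1 and PEG 2 correlated best with its own number among the NC PNAs, and PEG 3 did not. With the replicate block, 28 genes were lower in PEG-fused than in NC PNAs, and 33 and 45 were higher in PEG-fused and NC PNAs than in Unop nerves. Depth limits the ligand genes and Ido1 in Unop nerves.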
